A study of Homo sapiens with 12 samples.

Results

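The comparison described here is a difference of 2 differences in gene expression between sets of RNA libraries. All were made from A549, a human line of lung adenocarcinoma cells. The first shift was the change from libraries 1, 5 and 9 to libraries 2, 6 and 10, the second shift was the change from libraries 3, 7 and 11 to libraries 4, 8 and 12, and the difference was the first shift minus the second. Each set takes libraries whose numbers are 4 apart, and the sets were chosen from the expression values of these same libraries. Of 39393 gene symbols in the count table, 13045 had enough counts to be fitted, and 3200 of them passed the threshold on the difference. These 3200 genes were sorted into those that shifted in opposite directions, in 1 pair of sets only, or the same way by different amounts.

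All 12 libraries came from cells with a tetracycline-inducible DYRK1B gene, in the wild-type form (WT) or with the tyrosine-to-phenylalanine change Y273F. Cultures lasted 7 days, and doxycycline, where given, was at 2 µg/ml. By the titles, libraries 1 to 3 were WT control, 4 to 6 WT doxycycline, 7 to 9 Y273F control and 10 to 12 Y273F doxycycline, and the series text describes 3 separate cell populations per group, handled in parallel. Every set therefore crosses the titled groups. Libraries 1, 5 and 9 are WT control 1, WT doxycycline 2 and Y273F control 3. Libraries 2, 6 and 10 are WT control 2, WT doxycycline 3 and Y273F doxycycline 1. Libraries 3, 7 and 11 are WT control 3, Y273F control 1 and Y273F doxycycline 2, and libraries 4, 8 and 12 are WT doxycycline 1, Y273F control 2 and Y273F doxycycline 3. No condition was assigned to a set, and the sets are named by their library numbers throughout. As titled, each set holds both cell lines and both treatments. No library came from cells without the transgene, and the labels do not say whether a line was a clone or a pool.

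DYRK1B is a kinase that phosphorylates its own activation loop as it is made and that acts on cell cycle regulators. It is known for holding cells in a resting state by lowering cyclin D and by supporting the DREAM complex, which represses cell cycle genes. The integrated stress response is a separate program, in which the factor ATF4 turns on amino acid transport, amino acid synthesis and the enzymes that load amino acids onto transfer RNA. p53, which is intact in A549 cells, turns on CDKN1A, the inhibitor of cyclin-dependent kinases also called p21. A549 cells also carry high levels of redox enzymes under the factor NRF2, because its inhibitor KEAP1 is mutated in this line.

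Libraries held 2783265 to 7167086 counts in the set of libraries 2, 6 and 10 and 8731527 to 22028624 in that of libraries 1, 5 and 9. Libraries 3, 7 and 11 held 5081182 to 9094386, and libraries 4, 8 and 12 held 2996905 to 9165769. In a principal component analysis of the 500 most variable genes, the first component held 69.3% of the variance and placed libraries 2, 6 and 10 at 42.4 to 46.4 and all others at -4.64 or below. The second component, with 10.1%, placed libraries 1, 2, 5, 6, 9 and 10 at -2.15 or below and libraries 3, 4, 7, 8, 11 and 12 at 2.78 or above. Few genes divided those 2 groups of 6 sharply: 1 gene was more than 5-fold higher in all of the first 6 than in all of the other 6, and 5 were higher the other way. CSAG1, singled out after its values were seen, was read at 0.224 to 0.836 CPM (counts scaled to the library total) in libraries 1, 2, 5, 6, 9 and 10 and at 9.14 to 14.3 CPM in the other 6. Of 15 markers of alveolar-type lung adenocarcinoma, AKR1B10 and KRT18 were read at 2236 CPM or more in every library, SFTPB was at 0 in every library, and SFTPC, NKX2-1 and NAPSA had at most 1.43 CPM. The 12 fibroblast and smooth muscle markers summed to 35.3 to 40.9 CPM in libraries 1, 5 and 9, to 198 to 258 CPM in libraries 2, 6 and 10, to 33.6 to 37.4 CPM in libraries 3, 7 and 11 and to 51.8 to 63.1 CPM in libraries 4, 8 and 12. DES was at 0 throughout and DCN and FAP at 0.279 CPM or less, while COL1A1 and ACTA2 together made up most of the sum.

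With the groups as titled, no gene's response to doxycycline differed between the cell lines past the threshold. The edgeR quasi-likelihood test of that difference called 0 of 13045 genes (0%), and 160 genes had an unadjusted p below 0.05. The DESeq2 Wald test and limma-voom also called 0, with 141 and 154 genes below that unadjusted level. Each titled group mixes libraries of different sets, so differences between the sets enter the spread of the titled model. The standard error was 1.11 as titled and 0.18 by sets for KRT4, and 0.77 and 0.23 for PADI2. The 0 therefore does not show that the responses of the cell lines were equal. Of 147 genes named for the comparison of sets, 137 had the opposite sign in the titled comparison. This follows from the layout of the libraries. Written out by set, the titled comparison is the difference of shifts with its sign reversed and its size reduced. The count of signs is therefore not a separate result. Everything that follows is about the sets of library numbers, which were selected on these values, so the threshold (an adjusted p of 0.05) serves only to sort genes and no p-value is given for it. Standard errors (SE) and 95% intervals describe the spread within the sets.

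The difference passed the threshold for 3200 genes (24.5% of those fitted), 1713 positive (13.1%) and 1487 negative (11.4%). The first shift alone passed upward for 3056 genes (23.4%) and downward for 2842 (21.8%). The second passed upward for 201 (1.54%) and downward for 138 (1.06%). Since the sets were picked on the same values, nothing is read from these shares. The first shift was the larger across the genome, with a median size of 0.38 on the log2 scale against 0.15. Both shifts tended to point the same way: of the 5898 genes whose first shift passed, 4127 (70.0%) had the same sign in the second, against 61.7% of all genes fitted. Of the 339 genes whose second shift passed, 301 (88.8%) had the same sign in the first. Across genes, which are not independent, the shifts correlated with a Pearson r of 0.40 and a Spearman rho of 0.34, and the shifts share no library.

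Sorting gave 17 genes that shifted in opposite directions (0.13%), each with both shifts past the threshold. There were 2265 genes that shifted only between libraries 1, 5, 9 and 2, 6, 10 (17.4%), meaning that the second shift missed the threshold and was smaller than 0.3 on the log2 scale. By the same rule 21 genes shifted only between libraries 3, 7, 11 and 4, 8, 12 (0.161%). Another 155 genes shifted the same way by different amounts (1.19%), and 742 fell outside these kinds (5.69%), most of them (633) because the first shift passed while the second missed the threshold with a size of 0.3 or more. At the edge of the threshold, SEPHS1 (difference of -0.35) and PPARG (0.51) lay just inside, and MYDGF (-0.33) and SNRPA (-0.45) just outside.

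**Figure D1:**
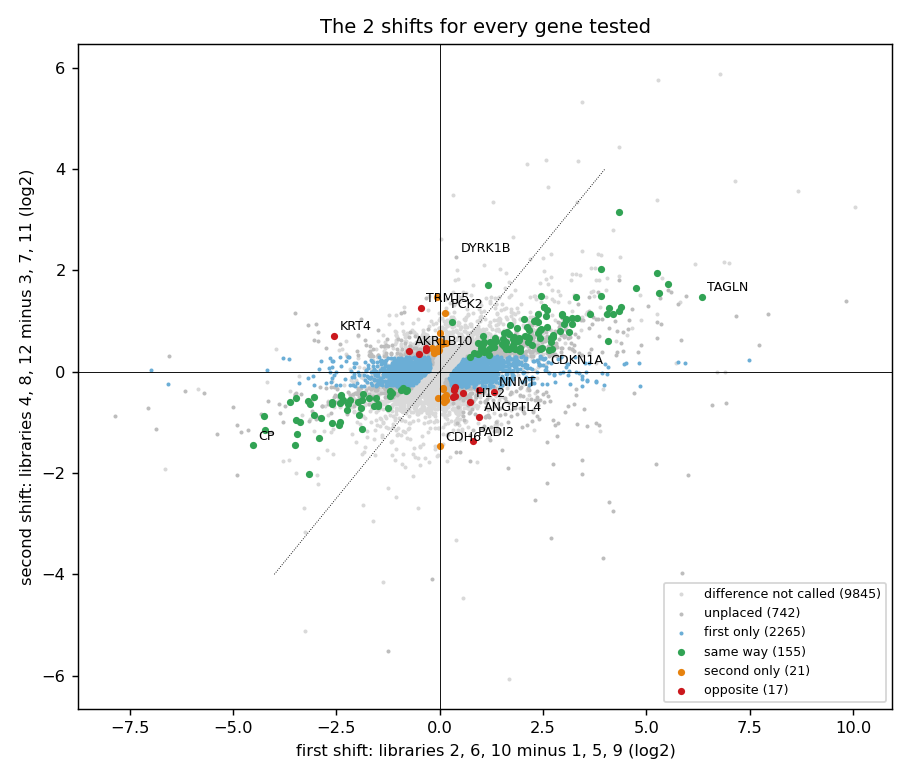
Each point is 1 of the 13045 genes fitted, with the first shift (log2) on the horizontal axis and the second shift (log2) on the vertical axis, and colors mark the kinds of difference. The dotted line marks equal shifts. Of the 155 genes of the same sign (green), all but PHGDH and PSAT1 lie flatter than that line, and the 17 genes of opposite sign (red) lie to the upper left and lower right of the center.

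The genes that shifted in opposite directions were 11 that were higher in libraries 2, 6 and 10 than in 1, 5 and 9 but lower in 4, 8 and 12 than in 3, 7 and 11, and 6 with the reverse pattern. In all 17 the 3 libraries of one set lay wholly above or below those of its partner, in both pairs. A shift that passes the threshold mostly comes with such separation. The first pair also lay apart in 1090 of 1095 and 1162 of 1170 genes that shifted only there. The 11 are ANGPTL4, PADI2, NNMT, AKAP12, H1-2, CD24, C1R, COMMD9, TFPI, CTSL and CD44. The 6 are KRT4, TRMT5, AKR1B10, RPL22L1, WNT7B and HES1.

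ANGPTL4 (chromosome 19, 8364155 to 8374370, GRCh38.p14) encodes a secreted inhibitor of lipoprotein lipase. It was read at 25.2, 19.8 and 18.1 CPM in libraries 1, 5 and 9 and at 50.8, 35.0 and 34.0 CPM in libraries 2, 6 and 10. In libraries 3, 7 and 11 it was read at 30.1, 19.1 and 20.7 CPM, and in libraries 4, 8 and 12 at 12.0, 9.96 and 14.7 CPM. The odd sets overlapped with each other, and the even sets moved away from them to opposite sides. The shifts were 0.94 and -0.89, and the difference was 1.83 (SE 0.28).

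PADI2 (chromosome 1, 17066761 to 17119451) encodes an enzyme that turns arginine into citrulline within proteins. Its levels were 12.4, 8.87 and 14.1 CPM in libraries 1, 5 and 9 and 24.3, 18.2 and 20.4 CPM in libraries 2, 6 and 10. They were 42.0, 43.3 and 37.7 CPM in libraries 3, 7 and 11 and 16.3, 14.6 and 16.3 CPM in libraries 4, 8 and 12. Here the odd sets were far apart, and libraries 3, 7 and 11 held the highest values of all. The even sets were the nearer pair, at 18.2 to 24.3 and 14.6 to 16.3 CPM. The shifts of 0.80 and -1.37 gave a difference of 2.17 (SE 0.23, interval 1.69 to 2.64).

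NNMT, the enzyme that methylates nicotinamide, lay at 83.6, 82.3 and 70.0 CPM in libraries 1, 5 and 9 and at 222, 182 and 179 CPM in libraries 2, 6 and 10. It lay at 115, 122 and 125 CPM in libraries 3, 7 and 11 and at 96.8, 83.7 and 92.6 CPM in libraries 4, 8 and 12. Its first shift (1.31) was more than 3 times the size of its second (-0.40), and the difference was 1.71 (SE 0.14). AKAP12, which tethers protein kinase A, went from 118, 139 and 134 CPM to 227, 267 and 262 CPM across the first pair and from 235, 224 and 222 CPM to 164, 184 and 182 CPM across the second. Libraries 3, 7 and 11 thus lay beside libraries 2, 6 and 10 for AKAP12, and the difference was 1.31 (SE 0.12).

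H1-2, a linker histone, lay at 60.8, 64.7 and 61.0 CPM in libraries 1, 5 and 9, at 93.8, 111 and 106 CPM in libraries 2, 6 and 10, at 72.1, 64.7 and 74.7 CPM in libraries 3, 7 and 11 and at 50.1, 38.5 and 48.3 CPM in libraries 4, 8 and 12. The odd sets lay next to each other, at 64.7 CPM on both sides of the gap, the first shift was 0.74, the second was -0.61, and the difference was 1.34 (SE 0.15). Replication-dependent histone transcripts mostly lack a poly(A) tail, and the libraries were made from polyadenylated RNA, so these reads cover only tailed transcripts.

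The other 6 of the 11 had smaller differences. CD24, a surface glycoprotein with near-identical copies in the genome among which reads may be split, had a difference of 0.99 (SE 0.13), from 280 to 292 CPM in libraries 1, 5 and 9, 379 to 444 CPM in 2, 6 and 10, 294 to 345 CPM in 3, 7 and 11 and 217 to 258 CPM in 4, 8 and 12. C1R, a protease of the complement cascade, had shifts of 0.37 and -0.48, and COMMD9, of the Commander complex of endosomal recycling, had shifts of 0.32 and -0.50. TFPI, which inhibits the tissue factor pathway of clotting, had shifts of 0.36 and -0.36. For the lysosomal protease CTSL they were 0.36 and -0.35, and for CD44, the hyaluronan receptor, 0.38 and -0.31. CD44 levels were 331 to 365, 444 to 464, 396 to 446 and 322 to 364 CPM in the 4 sets in the same order, so libraries 1, 5, 9 and 4, 8, 12 overlapped at the low end.

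KRT4, a keratin of stratified epithelium, had the difference of greatest size among the 17. It was read at 26.5, 28.3 and 27.2 CPM in libraries 1, 5 and 9 and at 4.95, 4.73 and 3.94 CPM in libraries 2, 6 and 10. In libraries 3, 7 and 11 it was read at 24.1, 25.8 and 23.5 CPM, and in libraries 4, 8 and 12 at 39.2, 40.8 and 40.2 CPM. No library of an even set came near its odd partners, on either side. The shifts were -2.56 and 0.71, and the difference was -3.26 (SE 0.18, interval -3.65 to -2.88).

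TRMT5 encodes a methyltransferase that modifies the base next to the anticodon of transfer RNAs. It lay at 67.8, 64.8 and 59.4 CPM in libraries 1, 5 and 9, at 49.0, 46.8 and 43.3 CPM in libraries 2, 6 and 10, at 25.3, 28.2 and 22.7 CPM in libraries 3, 7 and 11 and at 64.3, 59.8 and 59.2 CPM in libraries 4, 8 and 12. Libraries 3, 7 and 11 stood alone at the low end, while libraries 4, 8 and 12 overlapped with 1, 5 and 9. The second shift was the larger, 1.26 against -0.46, and the difference was -1.72 (SE 0.15).

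AKR1B10, an aldo-keto reductase and one of the NRF2-driven enzymes of A549 cells, went from 3815, 3798 and 4293 CPM to 2262, 2635 and 2236 CPM across the first pair. Across the second it went from 2375, 2848 and 2683 CPM to 3383, 3576 and 3536 CPM, a difference of -1.15 (SE 0.12). RPL22L1, a paralog of a ribosomal protein, had shifts of -0.49 and 0.34. WNT7B, a secreted WNT ligand, had shifts of -0.33 and 0.42. HES1, a repressor turned on by Notch, lay at 94.2, 100 and 105 CPM, then 79.0, 88.1 and 70.9 CPM in the first pair, and at 87.6, 103 and 94.8 CPM, then 111, 136 and 147 CPM in the second, with a difference of -0.79 (SE 0.15).

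The difference passed the threshold for all 17 in each of 12 fits that left out 1 library. Both shifts passed with opposite signs in all 12 of those fits for 5 of them: AKR1B10, H1-2, KRT4, PADI2 and TRMT5. At the other end, COMMD9 met both conditions in 2 of the 12 fits, and CTSL and TFPI in 3. The number of genes sorted as opposite was 11 without WT control 3 or without Y273F control 1, 8 without Y273F control 2 or without Y273F doxycycline 2, and 9 without Y273F doxycycline 3.

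**Figure D2:**
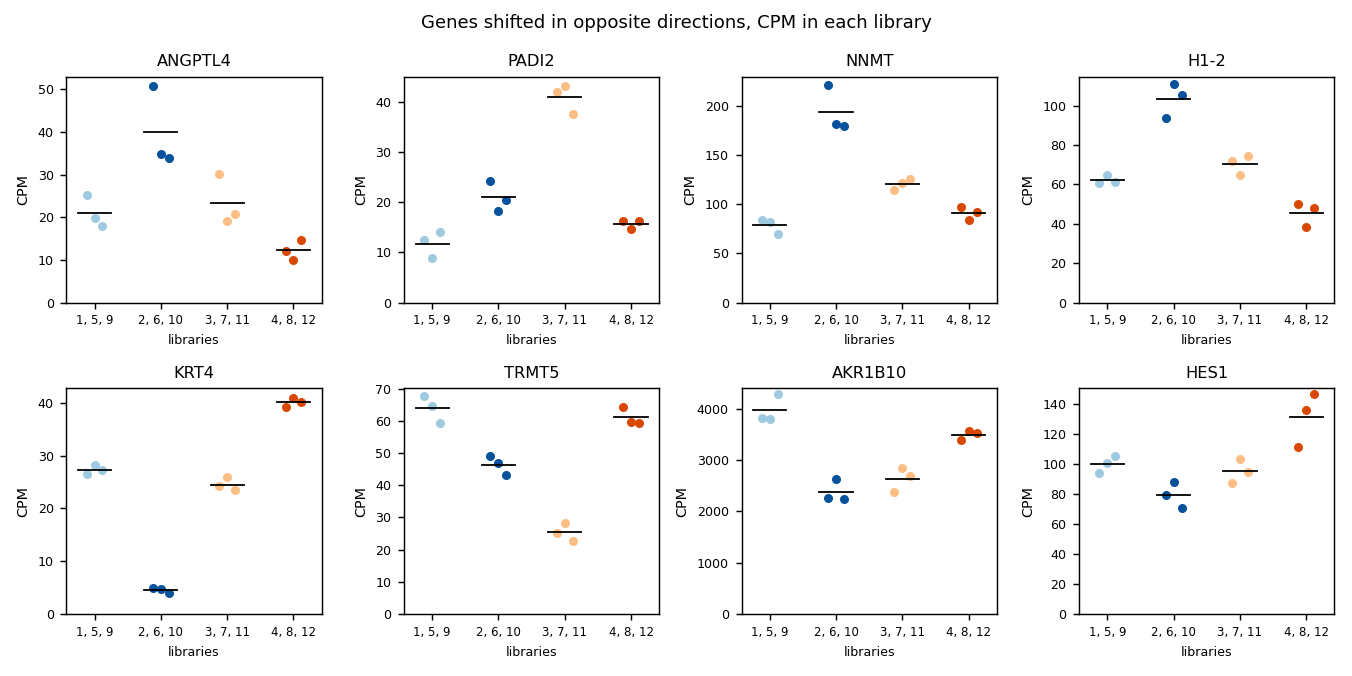
CPM of 8 genes with opposite shifts in each library (points) by set of library numbers, with the mean of each set as a line and every vertical axis starting at 0. ANGPTL4, PADI2, NNMT and H1-2 are higher in libraries 2, 6 and 10 and lower in 4, 8 and 12 than in their partners, and KRT4, TRMT5, AKR1B10 and HES1 show the reverse.

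Genes that shifted only in the second pair of sets numbered 21, of which 13 were higher in libraries 4, 8 and 12 than in 3, 7 and 11, and 8 were lower. In all 21 the sets of the second pair lay wholly apart, and in 4 of them (PEG10, PYCR1, SLC1A5 and YARS1) those of the first pair did too, with smaller shifts that missed the threshold. A passed shift mostly comes with separation: the second pair also lay apart in 105 of 106 and 46 of 49 same-way genes. Among the 13 were 3 cytosolic aminoacyl-tRNA synthetases (MARS1, IARS1, YARS1), enzymes of proline, folate and phosphoenolpyruvate metabolism (PYCR1, MTHFD2, PCK2) and amino acid carriers (SLC1A5 and SLC3A1). Among the 8 were both P4HA1 and P3H2, which hydroxylate prolines of collagen, and the adhesion molecule CDH6.

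PCK2, the mitochondrial phosphoenolpyruvate carboxykinase, lay at 23.1, 22.5 and 19.4 CPM in libraries 1, 5 and 9, at 25.4, 20.9 and 25.4 CPM in 2, 6 and 10 and at 21.1, 23.5 and 24.0 CPM in 3, 7 and 11. In libraries 4, 8 and 12 it lay at 58.1, 43.5 and 49.2 CPM, above every other library. The shifts were 0.13 and 1.15, a difference of -1.02 (SE 0.19, interval -1.41 to -0.63).

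MARS1, which loads methionine onto its transfer RNA, showed the same arrangement at 174, 182 and 198 CPM, then 176, 186 and 193 CPM, then 204, 194 and 195 CPM, and 342, 280 and 282 CPM in libraries 4, 8 and 12. The first 3 sets overlapped or lay next to each other, the first shift was 0.00, and the second was 0.61. YARS1, the tyrosine enzyme, lay at 126, 133 and 127 CPM in libraries 4, 8 and 12 and at 83.0 to 101 CPM in the other 9. IARS1, the isoleucine enzyme, lay at 163, 167 and 158 CPM in those libraries and at 109 to 135 CPM in the other 9. The second shifts of YARS1 and IARS1 were 0.56 and 0.42.

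The promoter sequences of IARS1 and MARS1 are shown because each holds, at its start site, a match to TGATGNAA, the C/EBP-ATF element bound by ATF4, in the reverse direction. The motif was searched after the values were seen. The sequences are from RefSeq on GRCh38.p14, read along the gene from 50 bases before the annotated start to 10 bases from it, and capitals mark the match. IARS1 is on the minus strand (chr9:92293688-92293747) and MARS1 on the plus strand (chr12:57488018-57488077).
IARS1: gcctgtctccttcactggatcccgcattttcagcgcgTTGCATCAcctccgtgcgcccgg
MARS1: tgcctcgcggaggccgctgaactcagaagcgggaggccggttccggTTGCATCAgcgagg
Of the 13 genes, 8 had a promoter entry and 2 of those 8 held the motif on either strand within 250 bases before to 50 bases after the start. The motif was present in 1.64% of the promoters of genes fitted and in 3.67% of all promoters listed. A match is a description of letters and not evidence of binding.

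PYCR1, which makes proline, lay at 158, 123 and 120 CPM in libraries 4, 8 and 12 and at 108, 92.2 and 91.5 CPM in libraries 3, 7 and 11, with shifts of -0.19 and 0.46. MTHFD2, of mitochondrial folate metabolism, lay at 191, 171 and 150 CPM in libraries 4, 8 and 12 and at 102 to 127 CPM in the other 9. SLC1A5, the glutamine carrier, had shifts of -0.17 and 0.44. SLC3A1, a subunit of the cystine and basic amino acid carrier, had the second shift of greatest size of the 13 (1.47) at low levels: 2.93, 3.26 and 1.17 CPM in libraries 3, 7 and 11 and 6.10, 6.31 and 8.70 CPM in 4, 8 and 12. In its case it was libraries 3, 7 and 11 that stood apart, since libraries 1, 2, 5, 6, 9 and 10 lay at 4.50 to 7.87 CPM. SLC35F3 showed that arrangement too, at 7.67 to 11.5 CPM in libraries 3, 7 and 11 and at 12.7 to 19.5 CPM in the other 9. The remaining members were NPAS2, a circadian clock factor (second shift 0.47), CKAP5, a microtubule polymerase (0.37), the RNA-binding protein IGF2BP2 (0.40) and C7orf50 (0.42).

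Of the 8 that were lower, CDH6 had the second shift of greatest size, from 7.67, 9.53 and 9.97 CPM in libraries 3, 7 and 11 to 3.05, 2.99 and 3.48 CPM in libraries 4, 8 and 12. Its first pair was scattered, with 11.7, 9.47 and 3.22 CPM in libraries 2, 6 and 10, so a first shift of 0.01 does not mean equal levels. P4HA1, a catalytic subunit of prolyl 4-hydroxylase, lay at 48.5, 59.1 and 54.2 CPM in libraries 4, 8 and 12 and at 72.2 to 83.7 CPM in the other 9. P3H2, a prolyl 3-hydroxylase, went from 94.8, 72.9 and 78.4 CPM to 56.9, 47.5 and 56.3 CPM in the second pair and lay at 57.7 to 66.8 CPM in the first. For P4HA1, libraries 4, 8 and 12 stood apart from the other 9, whereas for P3H2 libraries 3, 7 and 11 lay above the first pair and libraries 4, 8 and 12 below it. DRAM1, a lysosomal membrane protein of autophagy, had a second shift of -0.55, RFLNB, a filamin-binding protein, -0.52, and PEG10, an imprinted gene derived from a retrotransposon, -0.47. FNDC3B had -0.32 and LRP10, a receptor of the low-density lipoprotein receptor family, -0.33.

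Leaving out single libraries kept 7 of the 21 in this kind in all 12 fits: MARS1, P3H2, P4HA1, PCK2, PEG10, SLC1A5 and YARS1. The difference of RFLNB passed in 5 of the 12 fits, that of IGF2BP2 in 6, of SLC35F3 in 7 and of IARS1 and NPAS2 in 8. The count fell to 11 without Y273F doxycycline 2.

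**Figure D3:**
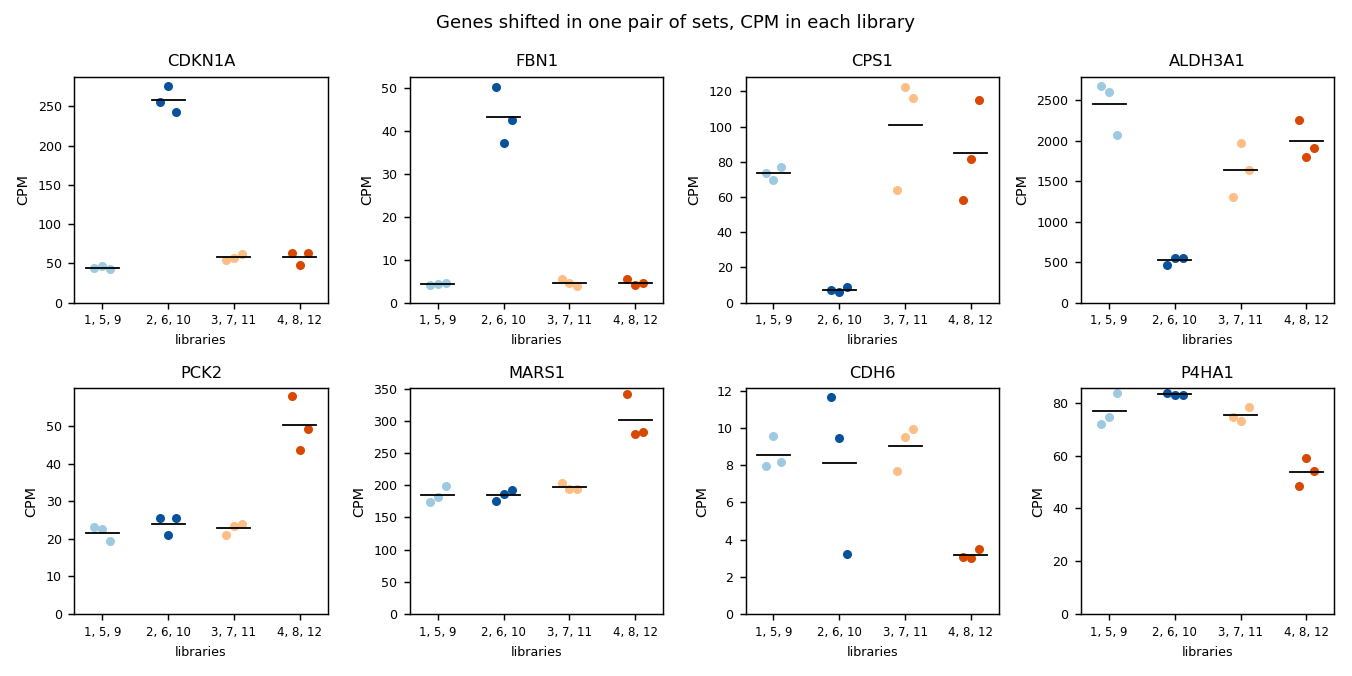
CPM of 8 genes that shifted in 1 pair of sets, in each library (points) by set of library numbers, with set means as lines and axes starting at 0. In the upper row libraries 2, 6 and 10 stand apart from the other 9, and in the lower row libraries 4, 8 and 12 do for PCK2, MARS1 and P4HA1, while CDH6 also has 1 low library among 2, 6 and 10.

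The integrated stress response list, with 32 genes fitted, had the highest median second shift of the lists with at least 8 genes fitted. The first shift passed upward for 22 of its genes and downward for 5, the second upward for 16 and downward for 0, with medians of 0.53 and 0.44. Over all genes fitted the medians were -0.01 and 0.00, and the shifts passed upward for 23.4% and 1.54%. The difference was positive for 7 and negative for 8, which is 46.9% of the list, against 24.5% of all genes fitted. SLC3A2, the heavy chain of amino acid exchangers, had shifts of 0.92 and 0.56, and SLC7A5, its partner for large neutral amino acids, 1.06 and 0.70. SLC7A11, the cystine carrier, had shifts of 0.66 and 0.27, the second short of the threshold. A pair of serine synthesis enzymes had the larger shift in the second pair. PHGDH, the first enzyme of that route, went from 25.1, 21.5 and 24.6 CPM to 48.4, 51.9 and 61.2 CPM in the first pair and from 37.4, 32.7 and 37.9 CPM to 129, 98.6 and 120 CPM in the second, with shifts of 1.17 and 1.70. PSAT1, the next enzyme, had shifts of 0.30 and 0.98. Not every tRNA synthetase of the list was arranged like MARS1. CARS1, the cysteine enzyme, had shifts of 0.71 and 0.69, and GARS1, the glycine enzyme, 0.51 and 0.59, with differences of 0.02 (SE 0.13) and -0.07 (SE 0.11) that missed the threshold. TRIB3, a pseudokinase that restrains ATF4, had shifts of 1.38 and 1.02, and ATF4 itself 0.14 and 0.25.

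Some members of the list were lower in libraries 2, 6 and 10. SLC38A2, a carrier of small neutral amino acids, had shifts of -0.94 and -0.34. AARS1, the alanine tRNA synthetase, went from 215, 217 and 191 CPM to 151, 130 and 167 CPM in the first pair and from 227, 199 and 221 CPM to 324, 227 and 258 CPM in the second, where 1 value of libraries 4, 8 and 12 reached the range of their partners. The factor ATF3 and the leucine sensor SESN2, which p53 also regulates, were higher mainly in the first pair, with first shifts of 2.80 and 1.63 and second shifts of 0.81 and 0.27 that missed the threshold. PHGDH, PSAT1, CARS1, GARS1, TRIB3, ATF4, AARS1, SLC7A5, ATF3 and SESN2 were singled out after their values were seen.

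**Figure D4:**
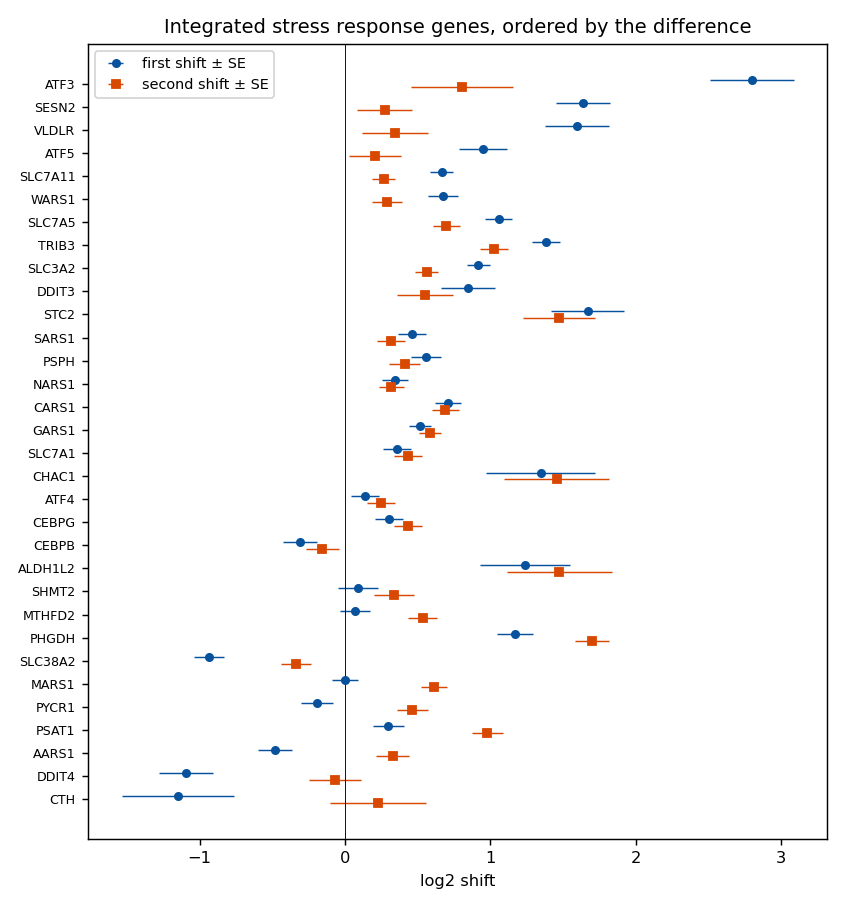
First shift (circles) and second shift (squares), in log2 units with bars of 1 SE, of the 32 integrated stress response genes fitted, ordered by the difference. SLC3A2 and SLC7A5 lie above 0 in both shifts, and MARS1, PYCR1 and MTHFD2 have second shifts of 0.46 to 0.61 beside first shifts of -0.19 to 0.07.

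Genes that shifted only in the first pair of sets were 1095 with a positive and 1170 with a negative difference, with median differences of 0.79 and -0.70. In 140 of the 1095 and 140 of the 1170, the sets of the second pair also lay wholly apart, with shifts that missed the threshold. Sets this small can lie apart by chance. The share over all genes fitted is not given here, so nothing is read from these counts. The positive ones included p53-regulated genes and some matrix and lysosomal genes, and the negative ones DNA replication, mitosis, NRF2 and ribosomal protein genes. Of 33 matrix genes fitted, 9 were of this kind, 7 were same-way and 8 fell outside the kinds. The lysosomal list went both ways, with 13 positive and 5 negative differences among 32 genes fitted. That is 56.2% of the list, against 24.5% of all genes fitted. Libraries 2, 6 and 10 were also the shallowest set, and after all libraries were thinned to the lowest total this kind held 1653 genes.

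CDKN1A was read at 43.8, 46.7 and 43.1 CPM in libraries 1, 5 and 9 and at 256, 276 and 243 CPM in libraries 2, 6 and 10. It stayed at 53.9, 56.7 and 62.4 CPM in libraries 3, 7 and 11 and at 63.3, 48.2 and 63.4 CPM in libraries 4, 8 and 12. The sets of the second pair overlapped, and those of the first were more than 5-fold apart, with shifts of 2.54 and 0.04 and a difference of 2.50 (SE 0.14). Of 30 p53 target genes fitted, 18 had a positive difference and 0 a negative one, or 60% against 24.5% of all genes fitted. The medians of their shifts were 0.71 and -0.02. MDM2, which marks p53 for destruction, had shifts of 0.96 and 0.02, and the death receptor TNFRSF10B 0.62 and 0.00.

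The related inhibitor CDKN1B, also called p27, moved the other way, at 62.8, 66.5 and 62.7 CPM in libraries 1, 5 and 9 and at 30.1, 36.3 and 27.6 CPM in 2, 6 and 10. In the second pair it lay at 53.6 to 73.5 CPM. Its shifts were -1.0 and -0.15. CCND1, the cyclin that DYRK1B is known to mark for breakdown, had a difference that missed the threshold, 0.07 (interval -0.19 to 0.33), with shifts of 0.33 and 0.26.

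Replication and mitosis genes were lower in libraries 2, 6 and 10 than in 1, 5 and 9, with second shifts near 0. In bulk RNA, fewer cells of a kind and less RNA per cell cannot be told apart. Of 45 G1/S genes fitted, the difference was negative for 35 and positive for 0, or 77.8% against 24.5% of all genes fitted. Their median shifts were -0.83 and -0.04. RRM1, a subunit of ribonucleotide reductase, lay at 400 to 448 CPM in libraries 1, 5 and 9, at 241 to 262 CPM in 2, 6 and 10, and at 372 to 476 CPM in the other 6. PCNA, the sliding clamp, had shifts of -0.90 and -0.20, and the helicase subunit MCM4 -0.67 and -0.09. Of 44 mitosis genes fitted, 30 had a negative difference and 0 a positive one, or 68.2% of the list. Their median shifts were -0.60 and 0.02. CDC25B, a phosphatase that starts mitosis, had shifts of -0.73 and 0.18, and MKI67, the Ki-67 proliferation antigen, -0.45 and 0.11. LMNB1, the B-type lamin, went from 107, 95.6 and 91.0 CPM to 56.5, 71.6 and 56.2 CPM in the first pair and lay at 83.5 to 119 CPM in the second.

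Of 74 cytosolic ribosomal protein genes, 37 had a negative difference and 0 a positive one, or 50% against 24.5% of all genes fitted. Their median shifts were -0.33 and 0.02. RPS6, of the small subunit, lay at 3141 to 3180 CPM in libraries 2, 6 and 10 and at 4426 to 6074 CPM in the other 9. Of 59 nuclear-encoded respiratory chain genes, 10 had a negative difference and 0 a positive one, which at 16.9% is below the share of all genes fitted. HMGB1, an abundant chromatin protein, had shifts of -0.98 and 0.02.

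Redox genes of the NRF2 list (35 fitted) had a negative difference in 18 cases and a positive one in 4. Together these made 62.9% of the list, against 24.5% of all genes fitted, and the median shifts were -0.45 and -0.08. ALDH3A1, an aldehyde dehydrogenase, was read at 2677, 2602 and 2071 CPM in libraries 1, 5 and 9 and at 468, 546 and 555 CPM in libraries 2, 6 and 10. In the second pair it lay at 1307, 1969 and 1638 CPM and then 2256, 1806 and 1915 CPM, sets that overlapped. AKR1C2, an aldo-keto reductase with close paralogs, had shifts of -1.67 and -0.23. In the same list AKR1B10 was among the genes of opposite direction described above, and HMOX1, heme oxygenase, singled out after its values were seen, had shifts of 2.01 and -0.70, the second short of the threshold.

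Among the first-pair genes with the greatest positive differences were FBN1, MUC3A, WNT9A, SFRP4, HSPB8 and NAV3. FBN1, the fibrillin of elastic microfibrils, lay at 3.98, 4.38 and 4.56 CPM in libraries 1, 5 and 9 and at 50.2, 37.0 and 42.6 CPM in 2, 6 and 10, against 3.91 to 5.53 CPM in the other 6. HSPB8, a small heat shock protein, lay at 8.09 to 8.97 CPM and 76.6 to 85.5 CPM in the first pair and at 11.5 to 16.9 CPM in the second. SFRP4, a secreted WNT antagonist, and the ligand WNT9A had first shifts of 3.15 and 3.45 beside second shifts of -0.25 and -0.15. The membrane mucin MUC3A had 3.98 and -0.27 at levels of 2.50 CPM or less outside libraries 2, 6 and 10, and NAV3 2.78 and -0.20. The other end of this kind held TOX3, CPS1, PLEKHH2, H1-3 and C9orf152. CPS1, the carbamoyl phosphate synthetase of the urea cycle, lay at 73.8, 69.5 and 77.0 CPM in libraries 1, 5 and 9, at 7.20, 5.85 and 8.59 CPM in 2, 6 and 10 and at 58.1 to 122 CPM in the other 6. TOX3, a chromatin-associated factor, had shifts of -3.64 and 0.24, and PLEKHH2 -2.67 and 0.08. C9orf152 lay at 25.9 to 29.2 CPM in libraries 1, 5 and 9 and at 0.00, 0.279 and 0.716 CPM in 2, 6 and 10, which rests on 4 counts in all, against 8.42 to 13.5 CPM in the other 6.

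The linker histones did not move as 1 group. H1-2 shifted in opposite directions, while H1-3, of the same histone cluster on chromosome 6, lay at 1.35 to 2.51 CPM in libraries 2, 6 and 10 and at 4.93 to 17.6 CPM in the other 9, with shifts of -2.93 and 0.05. Of 24 histone genes fitted, a list drawn up after the values were seen, 5 had a positive difference and 8 a negative one. The shares over all genes fitted were 13.1% and 11.4%. Median shifts of the 24 were -0.44 and -0.09.

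The same-way genes (155) shifted alike in direction and more in the first pair for all but PHGDH and PSAT1. The second shift was a median 0.344 of the first among the 106 with a positive difference and 0.322 of it among the 49 with a negative one. TAGLN, an actin-binding protein of smooth muscle, was read at 1.59, 1.15 and 1.74 CPM in libraries 1, 5 and 9 and at 137, 121 and 124 CPM in 2, 6 and 10. In the second pair it went from 2.26, 2.38 and 1.56 CPM to 5.51, 11.0 and 4.13 CPM. Neither pair overlapped, and the shifts were 6.34 and 1.48. IGFBP7, a secreted binding protein of insulin-like growth factors, had shifts of 4.08 and 0.60, the chemokine CCL2 4.34 and 1.19, and the adhesion molecule L1CAM 4.39 and 1.28.

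On the negative side, CP, the copper carrier ceruloplasmin, went from 237, 272 and 266 CPM to 7.42, 16.6 and 6.80 CPM and from 225, 219 and 317 CPM to 75.2, 92.0 and 111 CPM. Its shifts were -4.51 and -1.45. PDK4, which restrains pyruvate dehydrogenase, had shifts of -3.61 and -0.60, the water and glycerol channel AQP3 -3.47 and -0.53, the plasma protein APOH -3.18 and -0.57, and CPLX2, a complexin of vesicle fusion, -3.05 and -0.50. HLA-DMB, a chaperone of MHC class II loading, had -4.23 and -1.16. In this gene the odd sets already differed, at 120 to 145 CPM in libraries 1, 5 and 9 and 45.4 to 76.2 CPM in libraries 3, 7 and 11. The count of same-way genes was 99 without Y273F doxycycline 2.

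Among matrix, contractile and caveola genes the first shift passed upward for 27 of 33, 22 of 23 and 8 of 8, and the second for 8, 5 and 2. Of all genes fitted, the first passed upward for 23.4% and the second for 1.54%. The difference passed for 72.7%, 73.9% and 87.5% of these lists, against 24.5% of all genes fitted. Of the 33 matrix genes fitted, 23 had a positive difference and 1 a negative one, 7 of them in the same-way kind, with median shifts of 1.59 and 0.31. COL1A1, the main chain of type I collagen, lay at 18.5 to 22.6, 136 to 197, 13.3 to 14.5 and 29.3 to 30.8 CPM in libraries 1, 5, 9, then 2, 6, 10, then 3, 7, 11 and then 4, 8, 12. TGFBI, a secreted matrix protein, had shifts of 2.96 and 0.31, the second short of the threshold. Of the 23 contractile genes, 17 had a positive difference and 0 a negative one, among them TPM1, a tropomyosin, with shifts of 2.69 and 0.58. KRT18, a keratin of simple epithelium, had shifts of 1.48 and 0.31. Of the 8 caveola genes, 7 had a positive difference, and CAVIN1 had shifts of 1.89 and 0.60. The summed fibroblast and smooth muscle markers moved with these lists, as given above. The 8 endothelial markers summed to 1.12 to 3.64 CPM in libraries 1, 5 and 9, to 19.4 to 20.9 CPM in 2, 6 and 10, to 1.35 to 2.26 CPM in 3, 7 and 11 and to 1.89 to 5.98 CPM in 4, 8 and 12, mostly from ESAM, with VWF, KDR, CLDN5 and ERG at 0 in every library. The part of these markers in the result was not tested.

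Secreted factors linked to senescence (37 fitted) had 21 positive and 2 negative differences, with medians of 1.32 and 0.23. TIMP2, an inhibitor of matrix metalloproteinases, had shifts of 2.65 and 0.42, and the chemokine CXCL5 -1.47 and -0.21. Of 15 liver-type plasma protein genes, 8 had a negative difference and 2 a positive one, and 7 were of the same-way kind. FGB, a fibrinogen chain, had shifts of -2.86 and -0.92. Of 15 mucin and secretory genes, 9 had a negative difference and 0 a positive one, and AGR2, a chaperone of mucin folding, had shifts of -2.40 and -0.26. Interferon-stimulated genes (30 fitted) had 13 positive and 1 negative difference, and MHC class I genes (18 fitted) 9 and 0. HLA-B, a class I heavy chain, had shifts of 0.97 and 0.21. In the order given, the difference passed for 62.2%, 66.7%, 60%, 46.7% and 50% of these lists, against 24.5% of all genes fitted.

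Genes of glycolysis and hypoxia differed from the lists above in that the second shift had the larger median, -0.39 against -0.16 over 33 genes. The second shift passed downward for 9 and upward for 1, the first downward for 12 and upward for 8. Of all genes fitted, the second passed downward for 1.06% and upward for 1.54%, the first for 21.8% and 23.4%. The difference was positive for 7 and negative for 1, together 24.2% of the list, near the 24.5% of all genes fitted. SLC2A1, the glucose transporter GLUT1, had shifts of 0.96 and 0.29. NDRG1, a hypoxia-regulated gene, had shifts of 0.48 and -0.49, the second short of the threshold, with 1 high library (176 CPM, WT control 3) among 3, 7 and 11. P4HA1, described above, was the list's only second-pair member.

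**Figure D5:**
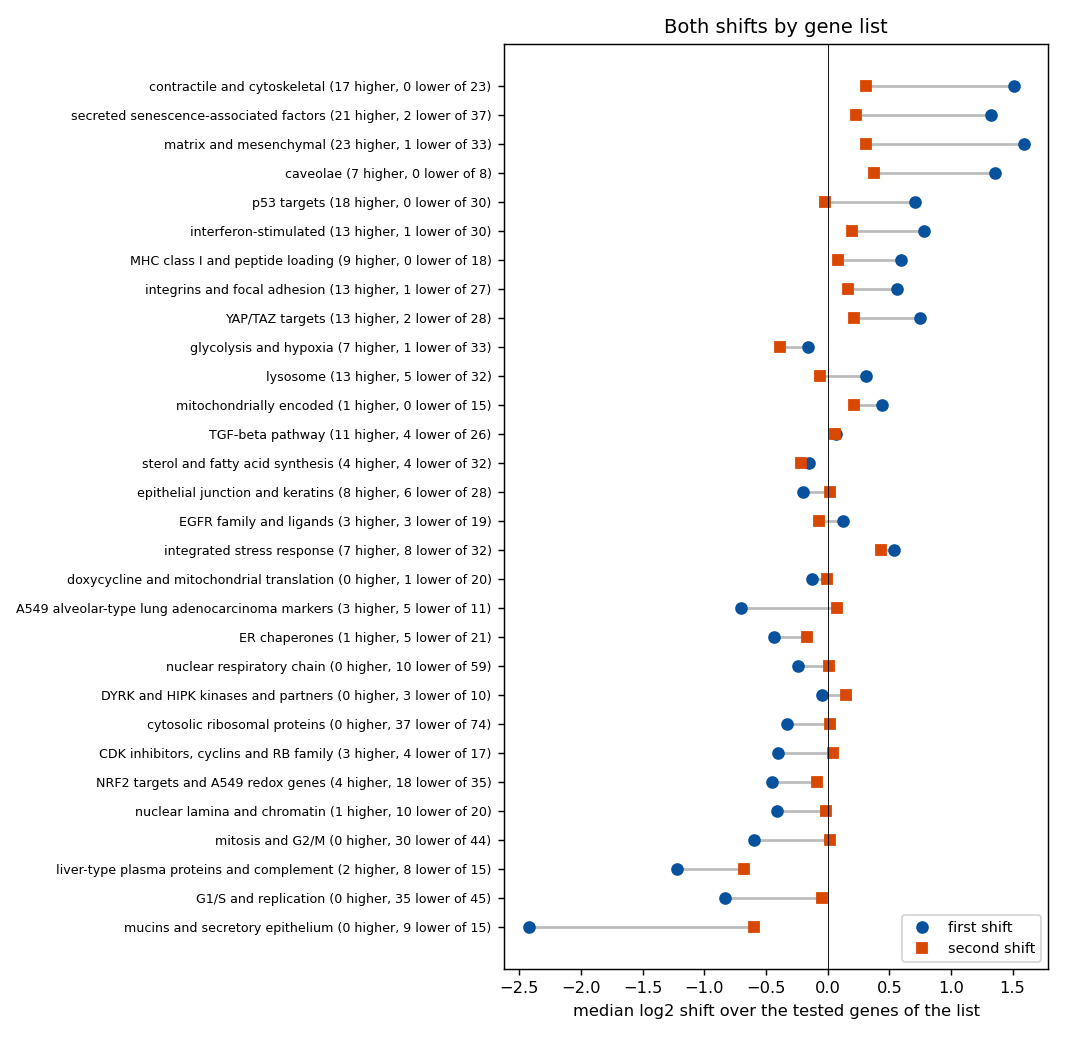
Median first shift (circles) and median second shift (squares), in log2 units, of each gene list with at least 8 genes fitted, ordered by the median difference, with the number of genes whose difference was positive (higher) or negative (lower). Matrix and contractile genes lie at the positive end of the first shift (1.59 and 1.51) and mucins at the negative end (-2.42). For those 3 lists the second median lies closer to 0 than the first.

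DYRK1B itself fell outside the kinds. It was read at 5.80, 4.07 and 3.22 CPM in libraries 1, 5 and 9, at 3.15, 7.80 and 4.65 CPM in 2, 6 and 10, at 5.64, 2.63 and 4.89 CPM in 3, 7 and 11 and at 28.6, 12.6 and 20.0 CPM in 4, 8 and 12. Libraries 4, 8 and 12 lay above all others, and 1 of these 3 is titled a control library. The shifts were 0.39 and 2.26, the first short of the threshold but above the limit of 0.3, and the difference was -1.87 (SE 0.50). The libraries read 3′ ends, and no source used here gives the 3′ end of the transgene, so transgene transcripts may not be counted under this gene.

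Other genes outside the kinds included 226 whose first shift passed while the second had the opposite sign and missed the threshold. They were among 633 genes outside the kinds whose first shift alone passed. Of all genes fitted, 61.7% had the same sign in both shifts and most of the rest opposite signs, so nothing is read from this count. CCND3, a D-type cyclin, lay at 81.4 to 94.1 CPM in libraries 1, 5 and 9, at 133 to 149 CPM in 2, 6 and 10, at 69.1 to 119 CPM in 3, 7 and 11 and at 56.5 to 73.4 CPM in 4, 8 and 12, with shifts of 0.68 and -0.51. HIPK2, a kinase related to the DYRK family, had shifts of -0.18 and 0.32, neither past the threshold.

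Promoters of the 17 opposite-direction genes were searched on both strands for the motifs named below. The window ran from 250 bases before to 50 bases after the RefSeq start, and 14 of the 17 had an entry. CCAAT, the NF-Y box, was in 3 of 10 promoters of genes with a positive difference and in 1 of 4 with a negative one, against 36.7% of the genes fitted. TTTGAA, the core of the CHR element of cell cycle genes, was in 2 of 10 and 0 of 4, against 9.51%, GGAATG, the TEAD site, in 1 of 10 and 0 of 4, against 10.9%, and TGANTCA, the AP-1 site, in 0 of 14, against 4.55%. TGATGNAA, the C/EBP-ATF element searched after the values were seen, was in 0 of 10 and 0 of 4, against 1.64%. The numbers are small, and no match says only that these letters are not in this window.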

How the data were processed

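Libraries were QuantSeq FWD V2, which reads the 3′ ends of polyadenylated transcripts, per the labels' protocols. STAR and GRCh38.p14 are named per the submitters' processing notes, with version, annotation and handling of duplicate reads not given in the sources used here. Whole-number counts were deposited by the authors, per gene for each library and merged by HGNC symbol (40605 rows). The merged table was used after rows with the same symbol were summed (39393 symbols). CPM were scaled by TMM factors. Total counts were 2783265 to 22028624, so 3 counts equal 0.136 to 1.08 CPM, which covers counting error only.

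A low-count filter (filterByExpr, minimum count 10) preceded the edgeR 4.0.16 quasi-likelihood fit (glmQLFit, glmQLFTest, Benjamini-Hochberg adjustment, R 4.3.3), in 1 model with 4 sets by library number modulo 4, and in a second with the titled groups. Where p-values compare titled groups they measure the spread between these cultures, which includes the differences between the sets. DESeq2 1.42.0 and limma 3.58.1 were alternatives. The procedure was tested on simulated counts. The members, sets and gene lists were chosen with earlier results of these data known. Named genes were up to 6 per kind and direction by the size of the difference (at least 5 CPM, sets apart), all members of kinds with few genes, up to 3 members per list by mean CPM, and DYRK1B, CDKN1A, CDKN1B, CCND1, LMNB1, MKI67, TGFBI and KRT18. Of the genes fitted, 12796 had a RefSeq entry for coordinates. Some named genes are not reported here.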

Additional observations from a re-analysis of the deposited data

Results flagged for a closer look

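The 17 genes that shifted in opposite directions are listed here because both shifts passed the threshold used for sorting, with opposite signs. In each of them every library of one even set lay on one side of its odd partners and every library of the other even set on the opposite side. Such separation was common among genes whose shifts passed, so it adds little to the sorting. The difference was not tested on data other than those that chose the sets. The log2 difference, first shift minus second, was 2.17 for PADI2, 1.83 for ANGPTL4, 1.71 for NNMT, 1.34 for H1-2, 1.31 for AKAP12 and 0.99 for CD24. It was 0.85 for C1R, 0.83 for COMMD9, 0.72 for TFPI, 0.70 for CTSL and 0.69 for CD44. On the negative side it was -3.26 for KRT4, -1.72 for TRMT5, -1.15 for AKR1B10, -0.84 for RPL22L1, -0.79 for HES1 and -0.75 for WNT7B.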

How the results depend on the processing

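With the titled groups in place of the sets, each of the 5 counts of genes (different shifts, opposite, first pair only, second pair only, same way) was 0. Against a minimum fold difference (glmTreat), 1818 of the 3200 genes passed. Without a filter on low counts, 41 genes were opposite, 40 second pair only and 262 same way. With counts thinned to the lowest total, an alternative chosen after seeing the data, 10 genes were opposite, 2340 differed, 1653 were first pair only, 15 second pair only and 114 same way. Leaving out 1 library at a time gave 2724 to 3091 genes that differed, 8 to 20 opposite, 1891 to 2157 first pair only, 11 to 25 second pair only and 99 to 155 same way. The titled comparison gave 0 or 1, the 1 being FKBP1C with the third Y273F doxycycline library left out and RPL32P18 with the second left out. Other size factors, a stricter filter, the DESeq2 Wald test, limma-voom, per-library tables and other limits on the smaller shift left every count within 1.5 times its value. Of 3230 comparisons of single named genes under the alternatives other than the titled groups, 3090 kept their call, 140 lost it and 0 changed sign.

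The title replicate number as a replicate block gave 2960 genes that differed, 16 opposite, 2106 first pair only, 17 second pair only, 133 same way and 0 in the titled comparison. Libraries with the same title number showed little shared deviation, with correlations of -0.10 to 0.15 over 18 pairs. For runs of 4 library numbers the correlations were -0.16 to 0.12 over 18 pairs. Deviations were taken from the means of sets picked on the values, so neither check can exclude a pairing. Runs of 4 library numbers as a block gave 3445, 24, 2469, 26 and 214.

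Depth limits genes of low level most: 3 counts are 1.08 CPM in Y273F doxycycline 1 and 0.136 CPM in Y273F control 3. Standard errors within sets picked on the values understate the error of a fresh comparison.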
